A study of Mus musculus with 36 samples.

Results

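The response of the mouse transcriptome to roxadustat was compared between liver RNA and retina RNA, gene by gene. Roxadustat is an inhibitor of the prolyl hydroxylases that mark hypoxia-inducible factor (HIF) for destruction. The quantity described is a difference of differences: the log2 change from PBS to roxadustat in liver RNA minus the log2 change from PBS to roxadustat in retina RNA. It was formed for the 11101 genes whose mean level reached 0.5 FPKM (fragments per kilobase of transcript, scaled to the mapped fragments of the library) in both tissues, out of 22533 gene symbols that the deposited tables share. It used 24 of the 36 libraries of the series, 6 for each combination of tissue and treatment. All animals were C57BL/6 mice. Controls received PBS, the treated mice received Roxadustat, and the remaining 12 libraries, from mice given DMOG, took no part in the contrast. The labels used here give no dose, time, age or sex, and do not say whether libraries came from separate mice, so the p-values measure the spread between libraries.

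The transcriptomes went against the tissue labels. In the libraries labelled retina, the summed level of 11 hepatocyte markers ran from 29795 to 43912 FPKM and that of 6 rod photoreceptor markers from 1.22 to 2.23 FPKM. In the libraries labelled liver, the hepatocyte sum ran from 65.5 to 237 FPKM and the rod sum from 7136 to 10864 FPKM. Alb, Trf and Ahsg, which define hepatocytes, were nevertheless listed at 0 in every library labelled retina. In what follows, "liver RNA" means the libraries labelled retina and "retina RNA" means the libraries labelled liver. Every direction below rests on that reading: with the labels taken at face value, the sign of each difference would be the opposite.

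HIF is a transcription factor made of an oxygen-regulated alpha subunit and a constant beta subunit. In well-oxygenated cells the prolyl hydroxylases PHD1, PHD2 and PHD3, encoded by Egln2, Egln1 and Egln3, hydroxylate the alpha subunit, and the VHL protein then directs it to the proteasome. When the hydroxylases are blocked, the alpha subunit accumulates and binds short DNA sequences with the core ACGTG or GCGTG beside genes of glycolysis, glucose and lactate transport, mitophagy, vessel growth and feedback on oxygen sensing. In the liver, HIF activity is also known for effects on lipid metabolism and on erythropoietin.

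The DNA upstream of genes that carry the comparison is given here because some were induced in both tissues and others in a single tissue. Each sequence is the 250 bases before a RefSeq start site (GRCm38.p6), with every ACGTG or GCGTG on either strand in capitals. Slc16a3 (chr11:120948817-120949066, plus strand) and Ldha (first of 2 start sites, chr7:46845554-46845803, plus strand) rose in both tissues.
Slc16a3: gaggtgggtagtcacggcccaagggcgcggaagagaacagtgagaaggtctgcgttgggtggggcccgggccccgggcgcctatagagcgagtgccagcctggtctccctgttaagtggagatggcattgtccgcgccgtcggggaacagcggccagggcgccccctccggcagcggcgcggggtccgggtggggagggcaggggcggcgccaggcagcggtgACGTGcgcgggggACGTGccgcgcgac
Ldha: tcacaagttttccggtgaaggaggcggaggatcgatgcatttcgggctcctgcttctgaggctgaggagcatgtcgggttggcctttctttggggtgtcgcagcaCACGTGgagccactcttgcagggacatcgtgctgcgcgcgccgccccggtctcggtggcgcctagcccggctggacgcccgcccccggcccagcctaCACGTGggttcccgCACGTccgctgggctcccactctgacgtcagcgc
Ankrd37 (chr8:45999851-46000100, minus strand) and Bnip3 (chr7:138909507-138909756, minus strand) rose in both tissues and more in liver RNA.
Ankrd37: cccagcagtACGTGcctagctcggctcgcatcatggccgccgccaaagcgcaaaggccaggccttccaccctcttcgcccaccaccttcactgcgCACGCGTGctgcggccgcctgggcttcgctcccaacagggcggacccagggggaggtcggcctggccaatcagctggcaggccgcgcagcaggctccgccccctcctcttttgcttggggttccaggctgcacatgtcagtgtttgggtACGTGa
Bnip3: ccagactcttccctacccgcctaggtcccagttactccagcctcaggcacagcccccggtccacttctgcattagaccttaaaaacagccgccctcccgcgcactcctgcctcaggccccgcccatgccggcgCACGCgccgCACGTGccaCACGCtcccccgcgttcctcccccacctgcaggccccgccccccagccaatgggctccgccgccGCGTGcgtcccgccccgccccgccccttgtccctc
Ak4 (the last of 4 start sites, chr4:101419453-101419702, plus strand) rose in both tissues and more in retina RNA, and Grhpr (chr4:44981144-44981393, plus strand) rose in retina RNA.
Ak4: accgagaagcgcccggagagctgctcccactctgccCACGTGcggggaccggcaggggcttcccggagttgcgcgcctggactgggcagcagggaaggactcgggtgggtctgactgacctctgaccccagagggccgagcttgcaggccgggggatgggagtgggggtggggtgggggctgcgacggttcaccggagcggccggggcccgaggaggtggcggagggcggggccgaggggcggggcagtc
Grhpr: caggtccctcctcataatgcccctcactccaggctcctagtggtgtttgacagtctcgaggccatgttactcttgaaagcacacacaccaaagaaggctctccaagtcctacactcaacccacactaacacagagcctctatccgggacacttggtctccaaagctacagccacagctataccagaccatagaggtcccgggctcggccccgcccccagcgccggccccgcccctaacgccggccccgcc
The Grhpr window holds neither core, and the other windows hold between 2 and 5 matches when a palindromic CACGTG counts on both strands. Among all 32851 RefSeq promoters of this length, 16.6% held ACGTG, 28.2% held GCGTG and 38.6% held either. Of 45 genes searched (those with the highest and lowest differences, the shared genes and the HIF genes named throughout), 40 had an entry, with 52 windows, of which 35 held a core. Counted by window, a core was found in 5 of 12 for the highest differences, a share near that of all promoters. It was found in 9 of 12 for the lowest and in 8 of 10 for genes shared by both tissues. Counted by gene with an entry, a core was found for 5 of 9, 6 of 9 and 7 of 7. The share over all promoters is counted by window, and a gene with several start sites has more windows. No share by gene was computed, so the counts by gene have no matching background. Of the windows for the lowest differences, 4 belonged to Ak4, and some of these overlap each other. These matches describe letters in a window and show no binding.

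The depth of the libraries is unknown, since only FPKM values were deposited. The step size of the lowest values gave a relative depth: 0.816 to 0.881 for PBS and 0.783 to 1.19 for roxadustat in retina RNA, and means of 1.02 ± 0.0679 and 0.974 ± 0.154 (SD, n = 6 each) in liver RNA. Retina RNA also carried lens transcripts. The summed level of 7 lens markers ran from 2477 to 29375 FPKM (median 11259) with PBS and from 274 to 15125 FPKM (median 631) with roxadustat, where replicate 1 alone was the high library. In liver RNA this sum stayed at or under 0.414 FPKM. By Xist and Y-linked transcripts, the libraries split 3 to 3 between female and male signal in every group except roxadustat liver RNA, which held 1 and 5. The number of a replicate did not mark an animal, since libraries sharing a treatment and number had the same sex signal in 4 of 12 pairs. Their part in the results was not tested beyond the terms given below. The tables of the tissues were normalized separately, so treatments are compared within a tissue and only the responses are compared between tissues.

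Roxadustat changed many more transcripts in liver RNA than in retina RNA, and the response itself differed between tissues for 490 of 11101 genes (4.41% of those tested; limma, adjusted p at most 0.05). The response was higher in liver RNA for 239 genes (2.15%) and lower for 251 (2.26%). In liver RNA alone, 1500 genes (13.5%) passed the test, with 688 higher (6.2%) and 812 lower (7.31%). In retina RNA, 193 genes (1.74%) passed, with 154 higher (1.39%) and 39 lower (0.351%). A called log2 response of at least 1 in size was found for 65 genes in liver RNA and 24 in retina RNA. Treated and PBS libraries did not overlap for 581 genes in liver RNA (5.23%), with treatment above for 307 (2.77%), and for 213 in retina RNA (1.92%), with treatment above for 168 (1.51%). The median difference over all genes was -0.01 on the log2 scale. Equal-total rescaling of the libraries left 431 differences but moved the liver RNA split to 473 higher and 1121 lower, 29.7% higher against 45.9%. The 1500 and 193 calls come from a fit that shares its spread between the tissues. With separate variances by tissue, 1188 genes passed in liver RNA and 284 in retina RNA, with 493 differences.

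The count of 490 changed with the libraries that set the spread and with added terms for lens signal and relative depth. In retina RNA both signals differed between PBS and roxadustat, so these terms cannot separate them from the treatment. The cause of the lower counts was not tested. With all 36 libraries in the fit, 249 differences passed, and with DMOG replicate 5 of the liver RNA left out, the other 35 gave 527. Of the 61 named genes with a called difference, 23 lost the call with all 36 libraries and 2 with these 35. A term for the lens marker sum of the retina RNA left 207 differences and 50 called genes in the retina RNA. A term for relative depth, fitted in each tissue, left 171 and 68. With a term for the sex signal, 429 differences passed. These terms were added after the values had been seen, except the sex term and the fit of all 36 libraries.

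**Figure D1:**
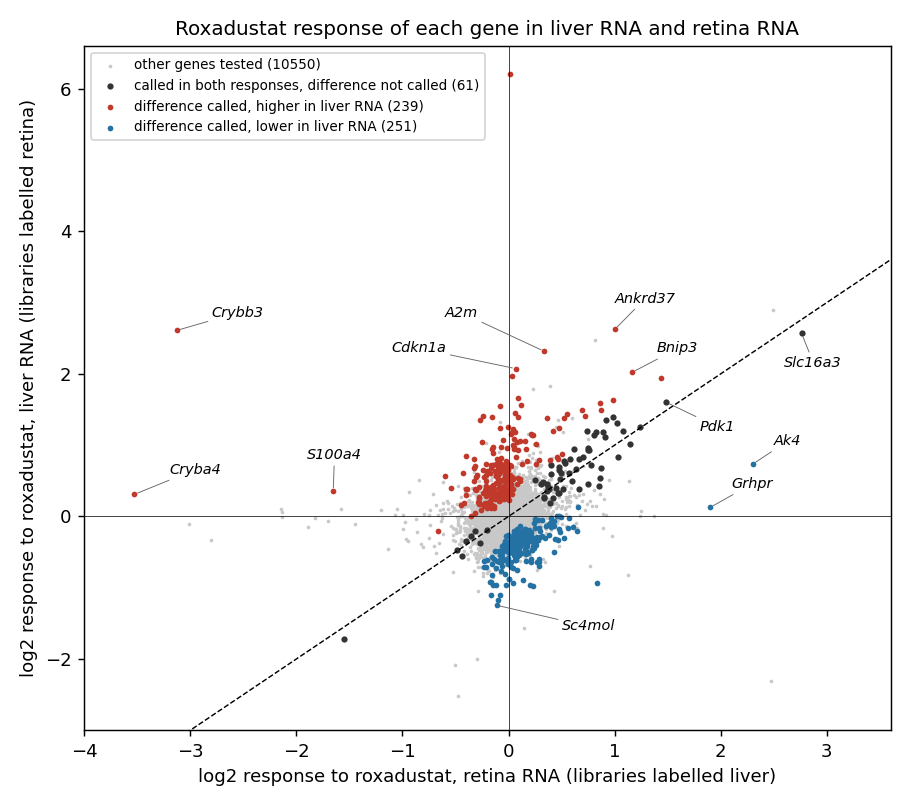
Each point is 1 of 11101 genes, with its log2 response to roxadustat in retina RNA on the horizontal axis and in liver RNA on the vertical axis; the dashed line marks equal responses. Colours show the 239 genes higher and 251 lower in liver RNA by the test of the difference, and black the 61 genes called in both tissues whose difference did not pass, most of which lie near the line.

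Most of the 490 genes were called through a change in liver RNA. For 407 of them (83.1%), the liver RNA response passed the test and the retina RNA response did not. The retina RNA response alone passed for 26, both passed in the same direction for 17, both in opposite directions for 3, and neither for 37. The liver RNA response was the larger in size for 427 (87.1%). Conversely, 78 genes passed in both tissues in the same direction (0.703% of all tested), 70 of them upward (0.631%). Of these 78, the difference did not pass for 61, was higher in liver RNA for 16 and lower for 1, Ak4. Over all genes the 2 responses had a Pearson r of 0.21 and a Spearman rho of 0.14, across genes that are not independent replicates.

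The 70 genes that rose in both tissues included 11 glycolysis enzymes and the lactate transporter gene Slc16a3. Slc16a3 encodes MCT4, the monocarboxylate transporter that exports lactate. In liver RNA it ran from 1.63 to 4.45 FPKM (median 2.26) with PBS and from 10.7 to 27.4 FPKM (median 16.5) with roxadustat. The retina RNA values ran from 4.28 to 13.7 FPKM (median 9.26) with PBS and from 45.9 to 81.98 FPKM (median 53.5) with roxadustat. Neither tissue showed overlap between the groups. The log2 responses were 2.57 and 2.76, and their difference of -0.19 had a 95% interval of -0.96 to 0.57.

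Pdk1, the kinase that switches off pyruvate dehydrogenase, rose in both tissues. It ran from 9.43 to 11.2 FPKM (median 10.2) with PBS and from 26.05 to 35.6 FPKM (median 32.8) with roxadustat in liver RNA. The retina RNA values were from 6.95 to 12.6 FPKM (median 11.3) and from 22.4 to 36.8 FPKM (median 31.6). All treated libraries lay above all PBS libraries in each tissue. The responses of 1.6 and 1.48 differed by 0.12 (95% interval -0.26 to 0.49).

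Among 19 tested glycolysis enzymes, 14 rose and 1 fell in liver RNA, against 6.2% and 7.31% of all genes. In retina RNA 11 rose, against 1.39% of all genes, and all 11 also rose in liver RNA. The median log2 response was 0.81 in liver RNA and 0.66 in retina RNA, against medians of -0.003 and 0.007 over all genes. The difference passed for 3 of the 19, against 4.41% of all genes, each higher in liver RNA: Pfkl, a phosphofructokinase (0.51 ± 0.12, SE, adjusted p = 0.015), Gpi1, glucose-6-phosphate isomerase (0.62 ± 0.12, adjusted p = 0.0019), and Aldoa, an aldolase (0.65 ± 0.16, adjusted p = 0.017). With all 36 libraries these became adjusted p = 0.41 for Pfkl, 0.46 for Gpi1 and 0.32 for Aldoa, with the same log2 differences. With the depth term the limma adjusted p was 0.14 for Pfkl, 0.10 for Aldoa and 0.039 for Gpi1. Pfkl rose in both tissues: its levels ran from 18.99 to 25.6 FPKM (median 19.7) and from 73.4 to 87.8 FPKM (median 82.2) in liver RNA, and from 40.4 to 48.5 FPKM (median 44.4) and from 103 to 146 FPKM (median 117) in retina RNA, with PBS first. The treated libraries were separate from the PBS libraries in both. Pgk1, phosphoglycerate kinase, had responses of 1.3 and 1.02 (95% interval of the difference -0.04 to 0.6). Gapdh, which has many processed pseudogenes that can take its reads, had 0.81 and 0.58.

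Ldha, the lactate dehydrogenase subunit that favours lactate, was among the 8 shared genes with the narrowest intervals of the difference. It ran from 676 to 887 FPKM (median 845) and from 1125 to 1547 FPKM (median 1299) in liver RNA, and from 817 to 1024 FPKM (median 941) and from 1577 to 1839 FPKM (median 1699.5) in retina RNA, with PBS first. Treated and PBS libraries did not overlap in either tissue. The responses were 0.68 and 0.87, with a difference of -0.19 (95% interval -0.41 to 0.04). Of 30 genes that rose or fell by at least 0.5 in both tissues without a called difference, the narrowest intervals also belonged to Ccdc115, a factor in assembly of the vacuolar proton pump (0.66 and 0.64), Jmjd6, an oxygen-dependent dioxygenase (0.61 and 0.57), Kdm3a, a histone H3 demethylase (0.83 and 0.7), and Ankzf1, a factor in ribosome quality control (0.54 and 0.87). For Ccdc115 the 95% interval of the difference was -0.14 to 0.2, and for Jmjd6 it was -0.15 to 0.23. Vegfa, the vascular growth factor, likewise rose in both, with 0.73 and 0.78 and a wider interval of -0.48 to 0.37.

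**Figure D2:**
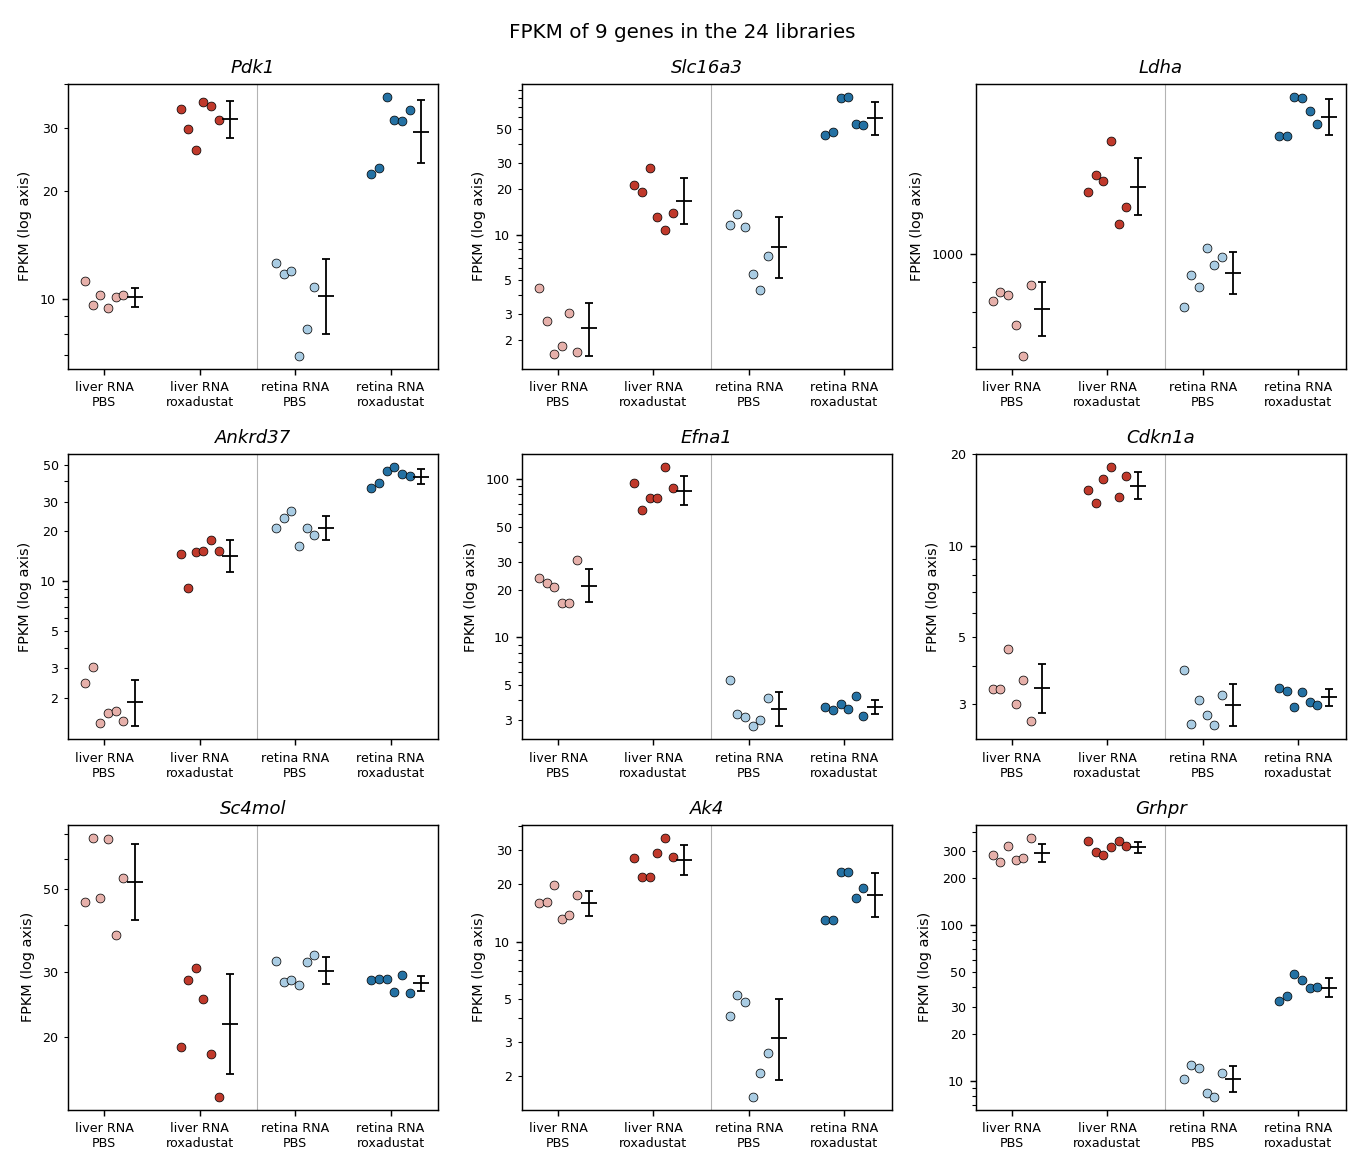
FPKM (log axis) of 9 genes in the 24 libraries, 6 points per group, with a bar for the mean ± SD computed on the log2(FPKM + 0.5) scale. Pdk1, Slc16a3, Ldha and Ankrd37 are separate between PBS and roxadustat in both tissues, Efna1, Cdkn1a and Sc4mol only in liver RNA, Grhpr only in retina RNA, and Ak4 has its wider gap in retina RNA.

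The oxygen sensors themselves differed by family member. Egln1, which encodes the main HIF prolyl hydroxylase PHD2 and is itself a HIF target, rose in both tissues. It ran from 7.38 to 9.44 FPKM (median 8.18) and from 17.02 to 20.7 FPKM (median 17.9) in liver RNA, and from 22.9 to 24.96 FPKM (median 23.6) and from 39.97 to 52.6 FPKM (median 44.3) in retina RNA, with no overlap in either. The responses of 1.12 and 0.91 gave a difference of 0.21 (95% interval 0.01 to 0.41) that did not pass (limma, adjusted p = 0.26). Egln3, which encodes PHD3, ran from 5.19 to 8.29 FPKM (median 7.05) with PBS and from 16.95 to 20.4 FPKM (median 18.6) with roxadustat in liver RNA, without overlap. Its retina RNA values ran from 1.04 to 2.14 FPKM (median 1.51) and from 1.61 to 2.62 FPKM (median 2.06), and the groups overlapped. The difference of 1.01 ± 0.16 (SE) passed (limma, adjusted p = 0.00046, and 0.18 with all 36 libraries).

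Egln2, encoding PHD1, passed in neither tissue alone, with responses of -0.18 in liver RNA and 0.15 in retina RNA. Its difference of -0.33 was called (adjusted p = 0.041) but lost the call when any of 16 of the 24 libraries was left out (adjusted p up to 0.078). The call was also lost with the lens term (adjusted p = 0.25), the depth term (0.26), all 36 libraries (0.053) and the sex term (0.095). Vhl had responses of 0.36 and 0.16, and the difference did not pass (95% interval 0.05 to 0.35). The HIF alpha subunit genes Hif1a (-0.32 and -0.24) and Epas1 (-0.44 and -0.18) fell in liver RNA, and their differences did not pass. Hif1an, which encodes the asparaginyl hydroxylase FIH, was -0.01 and 0.01. Of 8 tested oxygen-sensing genes, 1 difference was higher and 1 lower in liver RNA, against 2.15% and 2.26% of all genes, with a median of 0.07.

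Several HIF targets rose more in liver RNA. Ankrd37, an ankyrin-repeat gene known as a HIF target, ran from 1.41 to 3.07 FPKM (median 1.65) and from 9.07 to 17.7 FPKM (median 15.1) in liver RNA, and from 16.2 to 26.2 FPKM (median 20.9) and from 36.2 to 48.3 FPKM (median 43.4) in retina RNA. All treated libraries exceeded all PBS libraries in both tissues. The response was 2.62 against 1.00, a difference of 1.62 ± 0.21 (SE; limma, adjusted p = 2.9e-05, and 0.19 with all 36 libraries). Bnip3, a mitophagy receptor, rose by 2.02 and 1.16 (difference 0.86 ± 0.22, adjusted p = 0.023). That call was lost with the lens term (adjusted p = 0.055), the depth term (0.29) and all 36 libraries (0.31).

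Slc2a1, the glucose transporter GLUT1, ran from 5.49 to 7.9 FPKM (median 6.53) and from 15.4 to 23.9 FPKM (median 18.5) in liver RNA. Retina RNA values ran from 76.96 to 126 FPKM (median 111) and from 144 to 173 FPKM (median 153). Both tissues were without overlap, and the responses of 1.44 and 0.55 differed by 0.89 ± 0.16 (SE; limma, adjusted p = 0.0015, and 0.052 with all 36 libraries). Bsg, the partner protein that carries lactate transporters to the membrane, differed by 0.5 (adjusted p = 0.028). Bsg lost that call with the lens term (adjusted p = 0.11), the depth term (0.12) and all 36 libraries (0.18). It lost that call without PBS replicate 4 or roxadustat replicate 1 of the liver RNA, or PBS replicate 2 or 3 or roxadustat replicate 1, 2 or 6 of the retina RNA (adjusted p up to 0.055). Ddit4, an inhibitor of the growth kinase mTORC1, rose by 1.59 and 0.86 (difference 0.73, adjusted p = 0.00086, and 0.20 with all 36 libraries).

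Ero1l, an oxidase of the endoplasmic reticulum, rose in both tissues, by 1.38 and 0.52 (difference 0.86, adjusted p = 3.4e-05, and 0.27 with all 36 libraries). Gys1, a glycogen synthase, rose by 1.25 and 0.48 (difference 0.77, adjusted p = 0.00019, and 0.11 with all 36 libraries). Gbe1, the glycogen branching enzyme, rose in liver RNA by 1.09, was 0.05 in retina RNA, and differed by 1.04 (adjusted p = 1.6e-05). Higd1a, a respiratory chain factor, rose by 1.19 and 0.42 (difference 0.77, adjusted p = 0.0037, and 0.072 with the depth term). Across 19 tested HIF feedback and transcription targets, 4 differences were higher and 1 lower in liver RNA, against 2.15% and 2.26% of all genes. Of these 19, 15 rose in liver RNA and 7 in retina RNA, against 6.2% and 1.39% of all genes. The median difference was 0.31 against -0.01 over all genes. Of 12 tested genes of mitophagy and respiratory switching, 3 differences were higher in liver RNA, against 2.15% of all genes: Bnip3, Higd1a and Bnip3l (0.37). Bnip3l lost its call without any of 17 of the 24 libraries (adjusted p up to 0.084). It also lost it with the lens term (adjusted p = 0.17), the depth term (0.40) and all 36 libraries (0.40).

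Another set of genes rose in liver RNA and had overlapping groups in retina RNA. Cdkn1a, which encodes the cell cycle inhibitor p21, ran from 2.63 to 4.55 FPKM (median 3.36) and from 13.8 to 18.2 FPKM (median 15.9) in liver RNA, and from 2.55 to 3.89 FPKM (median 2.91) and from 2.92 to 3.39 FPKM (median 3.17) in retina RNA. Treated libraries were separate from PBS libraries in liver RNA and overlapped them in retina RNA. The difference was 2.00 ± 0.14 (SE; limma, adjusted p = 5.4e-10). Efna1, the ligand ephrin-A1, ran from 16.4 to 30.9 FPKM (median 21.4) and from 64.1 to 119 FPKM (median 82.3) in liver RNA, and from 2.75 to 5.34 FPKM (median 3.21) and from 3.17 to 4.26 FPKM (median 3.59) in retina RNA. It rose in liver RNA by 1.97 without overlap and was 0.04 in retina RNA (difference 1.93, adjusted p = 2.8e-06). The neutral amino acid transporter Slc1a4 (1.63) and the uridine-cytidine kinase Uck1 (1.57) had differences of similar size, with adjusted p = 5.4e-10 and 5.4e-10. Each rose in all 6 treated liver RNA libraries above every PBS library, and neither passed in retina RNA, where Slc1a4 had -0.08 and Uck1 0.09. Rgs4, a regulator of G protein signalling, differed by 1.65 (adjusted p = 0.0025, and 0.056 with the depth term). In retina RNA its highest value, 105 FPKM, was PBS replicate 1, and the other 11 libraries lay at or under 48.7.

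Grhpr and Ak4 rose more in retina RNA than in liver RNA. Grhpr, glyoxylate and hydroxypyruvate reductase, is abundant in liver and was at high level there in both groups, from 256 to 366 FPKM (median 277) with PBS and from 281 to 348 FPKM (median 319) with roxadustat. In retina RNA it ran from 7.89 to 12.6 FPKM (median 10.8) with PBS and from 32.5 to 48.4 FPKM (median 39.95) with roxadustat. The retina RNA groups were separate and the liver RNA groups overlapped. The difference was -1.77 ± 0.16 (SE; limma, adjusted p = 4.9e-08).

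Ak4, a mitochondrial adenylate kinase, rose in both tissues and more in retina RNA. It ran from 13.1 to 19.8 FPKM (median 15.9) and from 21.6 to 34.8 FPKM (median 27.5) in liver RNA. In retina RNA it ran from 1.56 to 5.25 FPKM (median 3.36) and from 12.9 to 23.0 FPKM (median 17.9). Treated libraries lay above PBS libraries in each tissue. The responses were 0.73 and 2.3, a difference of -1.57 ± 0.29 (SE; limma, adjusted p = 0.0016). Sesn1, a stress-induced inhibitor of growth signalling, rose in retina RNA by 0.43 and was -0.06 in liver RNA (difference -0.5, adjusted p = 0.015, and 0.084 and 0.090 with the lens and depth terms). Dll4, an endothelial Notch ligand, rose in retina RNA by 0.4 and was -0.15 in liver RNA. Its difference of -0.56 (adjusted p = 0.028) lost the call with the depth term (adjusted p = 0.37), all 36 libraries (0.081) and the sex term (0.059). It also lost the call without PBS replicate 6 or roxadustat replicate 2 of the liver RNA. The same held without PBS replicate 2 or 3 or roxadustat replicate 1 or 2 of the retina RNA (adjusted p up to 0.056 over these libraries).

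Genes of cholesterol synthesis fell in liver RNA and did not pass the test in retina RNA. Of 20 tested genes of the list, which also holds the sterol carrier Stard4, 15 fell in liver RNA (7.31% of all genes fell) and none passed in retina RNA (1.74% of all genes passed). The difference was lower in liver RNA for 8 and higher for none, against 2.26% of all genes lower. The median log2 response was -0.62 in liver RNA and -0.1 in retina RNA. Hmgcs1 was listed at 0 in all libraries.

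Sc4mol, the sterol C4-methyl oxidase now called Msmo1, had the lowest difference of the list. It ran from 37.5 to 68.6 FPKM (median 50.3) with PBS and from 13.8 to 30.7 FPKM (median 22.1) with roxadustat in liver RNA, without overlap. Retina RNA gave values from 27.6 to 33.3 FPKM (median 30.2) and from 26.2 to 29.3 FPKM (median 28.5), with overlap. The difference was -1.14 ± 0.21 (SE; limma, adjusted p = 0.0018). Mvk, mevalonate kinase, ran from 7.83 to 14.3 FPKM (median 12.1) and from 5.02 to 8.4 FPKM (median 6.2) in liver RNA, and from 21.8 to 26.3 FPKM (median 23.3) and from 19.9 to 25.3 FPKM (median 23.4) in retina RNA. The groups overlapped in both tissues, and the difference was -0.78 (adjusted p = 0.0031, and 0.081 with the depth term).

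The regulators of the sterol program moved in opposite senses in liver RNA. Srebf2, the master transcription factor of cholesterol synthesis, had -0.57 in liver RNA and -0.22 in retina RNA. The difference of -0.35 did not pass (adjusted p = 0.099), although it passed without PBS replicate 5 of the liver RNA (-0.43, adjusted p = 0.0089). Insig1, which holds the SREBP complex in the endoplasmic reticulum, rose in liver RNA by 0.58 and was -0.3 in retina RNA (difference 0.88, adjusted p = 0.00085). Fasn, fatty acid synthase, had -0.88 in liver RNA and -0.00 in retina RNA (difference -0.88, adjusted p = 0.0019, and 0.056 with the depth term). Mid1ip1, an activator of fatty acid synthesis, differed by -0.82 (adjusted p = 0.0016, and 0.052 with the lens term). Me1, malic enzyme, went the other way, at 0.7 (adjusted p = 0.015, and 0.059 and 0.081 with the lens and depth terms). Of 16 tested fatty acid synthesis genes, the difference was lower in liver RNA for 2 and higher for 1. Over all genes 2.26% were lower and 2.15% higher, and the median difference of the list was -0.07. In liver RNA, 7 of the 16 fell and 1 rose, against 7.31% and 6.2% of all genes. None passed in retina RNA, a share near the 1.74% over all genes. Chka, choline kinase, differed by -1.07 (adjusted p = 5.4e-05), and Irs1, an insulin receptor substrate, by -0.73 (adjusted p = 0.0013).

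**Figure D3:**
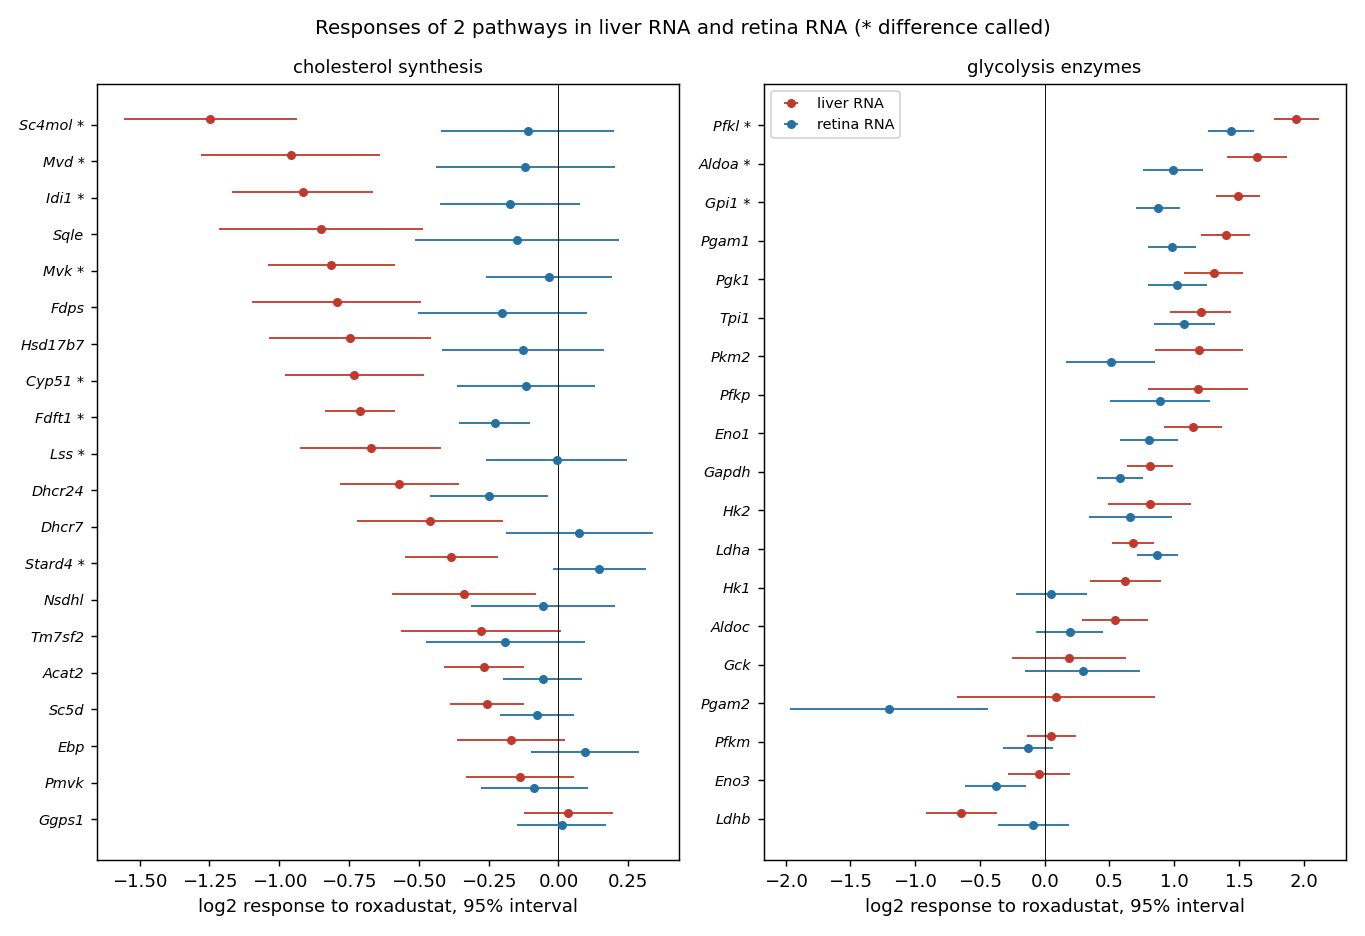
Log2 response to roxadustat with its 95% interval for the 20 tested genes of the cholesterol list (left) and the 19 tested glycolysis enzymes (right), liver RNA in red and retina RNA in blue; a star marks the genes whose difference was called, 8 on the left and 3 on the right. The glycolysis responses lie mostly to the right of 0 in both tissues, while the cholesterol responses lie to the left in liver RNA and near 0 in retina RNA.

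Acute phase and early response genes rose in liver RNA. Of 31 acute phase genes, 21 were below the filter in retina RNA, so the 10 tested are those that the retina also transcribes. Among these, 7 rose in liver RNA, against 6.2% of all genes, and 6 differences were higher in liver RNA, against 2.15%. None passed in retina RNA, a share near the 1.74% over all genes. A2m, the protease inhibitor alpha-2-macroglobulin, ran from 3.21 to 6.95 FPKM (median 4.4) and from 15.9 to 61.4 FPKM (median 23.6) in liver RNA, and from 1.21 to 3.61 FPKM (median 2.75) and from 2.43 to 4.21 FPKM (median 3.23) in retina RNA. Its difference was 1.98 ± 0.35 (SE; limma, adjusted p = 0.0010). Cebpb, a transcription factor of the acute phase, differed by 1.24 (adjusted p = 0.00086). Serpina3n, one of a family of near-identical genes that can share reads, differed by 1.03 (adjusted p = 0.0031, and 0.074 with the depth term). Socs3, a feedback inhibitor of cytokine signalling, differed by 0.68 (adjusted p = 0.016, 0.16 with the lens term and 0.17 with all 36 libraries), and Stat3 by 0.38 (adjusted p = 0.0021). Lcn2, lipocalin 2, differed by 1.28 (adjusted p = 0.036) and lost the call without any of 11 of the 24 libraries (adjusted p up to 0.070). It also lost the call with the lens term (adjusted p = 0.10), the depth term (0.40) and all 36 libraries (0.18). The summed level of 7 neutrophil markers, a cell type that also makes Lcn2, ran from 839 to 1947 FPKM with PBS and from 874 to 1856 FPKM with roxadustat in liver RNA.

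Of 16 tested immediate early genes, 10 rose and 1 fell in liver RNA, where 6.2% of all genes rose and 7.31% fell. None passed in retina RNA, where 1.74% of all genes passed. The difference was higher in liver RNA for 3 and lower for 1, against 2.15% and 2.26% of all genes, with a median of 0.49. Ier3, an early response gene, ran from 2.16 to 3.66 FPKM (median 2.6) and from 4.18 to 9.13 FPKM (median 7.12) in liver RNA, and from 45.4 to 62.02 FPKM (median 57.1) and from 51.3 to 61.9 FPKM (median 56.02) in retina RNA. It moved in liver RNA without overlap and overlapped in retina RNA, with a difference of 1.14 (limma, adjusted p = 0.00072). Dusp1, a phosphatase that turns off MAP kinases, differed by 0.9 (adjusted p = 0.012, 0.12 with the lens term and 0.064 with all 36 libraries). Ier2 was lower in liver RNA, at -0.61 (adjusted p = 0.024, 0.15 and 0.21 with the lens and depth terms). Of 17 tested p53 targets and growth arrest genes, 3 differences were higher (Cdkn1a, Gadd45b and Plk2) and 1 lower (Sesn1), against 2.15% higher and 2.26% lower over all genes. Plk2 differed by 0.47 (adjusted p = 0.022) and lost the call with the lens term (adjusted p = 0.062) and the depth term (0.25). Gadd45b differed by 1.04 (adjusted p = 0.015), which became 0.53 (adjusted p = 0.34) with the lens term. None of 25 tested cell division genes passed in either tissue or in the difference, against 13.5% of all genes in liver RNA, 1.74% in retina RNA and 4.41% for the difference. At the shares for retina RNA and the difference, a list of this size holds few called genes or none.

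Fkbp5, a glucocorticoid-induced chaperone, fell in liver RNA by 0.57 on the log2 scale and was 0.06 in retina RNA (difference -0.63; limma, adjusted p = 0.0030, and 0.052 with all 36 libraries). Among 13 tested glucocorticoid response genes, 3 differences were higher (Cdkn1a, Lcn2 and Ddit4) and 1 lower, against 2.15% and 2.26% of all genes. Flt1, a receptor for vascular endothelial growth factors, rose in liver RNA by 0.65 and was -0.01 in retina RNA (difference 0.65, adjusted p = 0.0037, and 0.088 with the depth term). It was 1 of 23 tested angiogenic receptors and endothelial genes (4.35%), a share near the 4.41% over all genes. The 6 endothelial markers summed to between 99.9 and 119 FPKM over the 12 liver RNA libraries. In bulk tissue, fewer cells of a type and less RNA per cell cannot be told apart.

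Genes of the lens stood among the highest differences. Crybb3, a beta crystallin, ran from 335 to 3921 FPKM (median 1461) with PBS and from 43.8 to 2013 FPKM (median 94.3) with roxadustat in retina RNA, where the high treated library was replicate 1. In liver RNA, whose lens marker sum was near 0, it ran from 0.60 to 1.34 FPKM (median 0.779) with PBS and from 4.23 to 15.3 FPKM (median 7.43) with roxadustat, without overlap. The responses were 2.61 in liver RNA and -3.13 in retina RNA, a difference of 5.74 ± 0.93 (SE; limma, adjusted p = 0.00044). With the lens marker term the difference was 2.68 (adjusted p = 1.5e-05). Cryba4, another crystallin, differed by 3.84 (adjusted p = 0.024), which became 0.55 (adjusted p = 0.50) with the lens term. S100a4, a calcium-binding protein, differed by 2.01 (adjusted p = 0.041), which became 0.44 (adjusted p = 0.72) with that term and lost the call without any of 16 of the 24 libraries. For Cryba4 and S100a4 the liver RNA responses were 0.31 and 0.35, neither called.

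Opposite called responses were found for 3 genes: Crybb3, Thrb and Nsf. Thrb, thyroid hormone receptor beta, ran from 6.06 to 6.99 FPKM (median 6.52) and from 4.04 to 6.64 FPKM (median 4.87) in liver RNA, and from 14.6 to 21.3 FPKM (median 19.7) and from 24.3 to 30.8 FPKM (median 26.4) in retina RNA. It fell in liver RNA (-0.33) with overlapping groups and rose in retina RNA (0.47) without overlap, a difference of -0.80 ± 0.13 (SE; limma, adjusted p = 0.00056). Nsf, an ATPase of vesicle fusion, rose in liver RNA (0.2) and fell in retina RNA (-0.29), with a difference of 0.49 (adjusted p = 0.0022, and 0.10 with the depth term).

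Among the other named genes with low differences, Heyl, Igfbp3, Notum, Itpka, Tnfaip8l3, Bex2 and Dio3os each fell in liver RNA and did not pass in retina RNA. Heyl, a repressor downstream of Notch, ran from 1.58 to 2.78 FPKM (median 2.17) and from 0.919 to 1.34 FPKM (median 1.13) in liver RNA, and from 0.666 to 0.82 FPKM (median 0.719) and from 0.85 to 1.11 FPKM (median 1.04) in retina RNA. Treated libraries lay below all PBS libraries in liver RNA and above them in retina RNA. The difference was -0.98 ± 0.12 (SE; limma, adjusted p = 1.5e-05), and the retina RNA response of 0.29 did not pass on its own. Igfbp3, a carrier of insulin-like growth factors, differed by -1.21 (adjusted p = 0.033). It lost the call without any of 11 of the 24 libraries (adjusted p up to 0.063), with the lens term (0.13) and with the depth term (0.29). Notum, an enzyme that inactivates Wnt ligands, differed by -1.16 (adjusted p = 0.049) and lost the call without any of 19 of the 24 (adjusted p up to 0.090). The Notum call was also lost with the lens term (adjusted p = 0.11), the depth term (0.17), all 36 libraries (0.065) and the sex term (0.086). Itpka, an inositol trisphosphate kinase, differed by -1.02 (adjusted p = 0.0086), and Tnfaip8l3 by -0.98 (adjusted p = 0.018). With the lens term these became adjusted p = 0.080 and 0.085, and with the depth term 0.096 and 0.088. Bex2 differed by -1.02 (adjusted p = 0.030). The Bex2 call was lost with the lens term (adjusted p = 0.25), the depth term (0.096), all 36 libraries (0.29) and the sex term (0.071). Its call was lost without PBS replicate 6 or roxadustat replicate 2 of the liver RNA, or PBS replicate 2 or 6 or roxadustat replicate 3 of the retina RNA, with adjusted p up to 0.058. Dio3os, a transcript antisense to the Dio3 locus whose reads may be shared with it if strand was not used in counting, had responses of -0.93 in liver RNA and 0.83 in retina RNA, where all 6 treated libraries lay above the PBS mean. It differed by -1.77 (adjusted p = 0.0050, and 0.079 with the lens term).

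Several lists held no called difference among their tested members. None of 34 oxidative phosphorylation subunits (median difference 0.06) passed in liver RNA, retina RNA or the difference, against 13.5%, 1.74% and 4.41% of all genes. The same held for the difference of 22 fatty acid oxidation genes (median -0.15), 15 clock genes (median -0.02), 13 collagen prolyl and lysyl modification genes (median 0.04), 13 iron handling genes (median -0.05), 15 macrophage and interferon genes (median 0.26), 9 urea cycle genes (median 0.04) and 6 phototransduction genes (median -0.13). Of the clock genes, 7 fell and 1 rose in liver RNA, against 7.31% and 6.2% of all genes. None of them passed in retina RNA, a share near the 1.74% over all genes. P4ha1, a subunit of collagen prolyl hydroxylase, rose in both tissues, with signed responses of 1.19 and 0.83. Over all genes tested, 4.41% of differences passed, and at that share lists of these sizes hold few called genes or none. The lists also hold only members that reached the filter in both tissues. Of 30 phototransduction genes, 23 failed it in liver RNA alone, and of 16 urea cycle genes, 7 failed it in retina RNA alone.

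**Figure D4:**
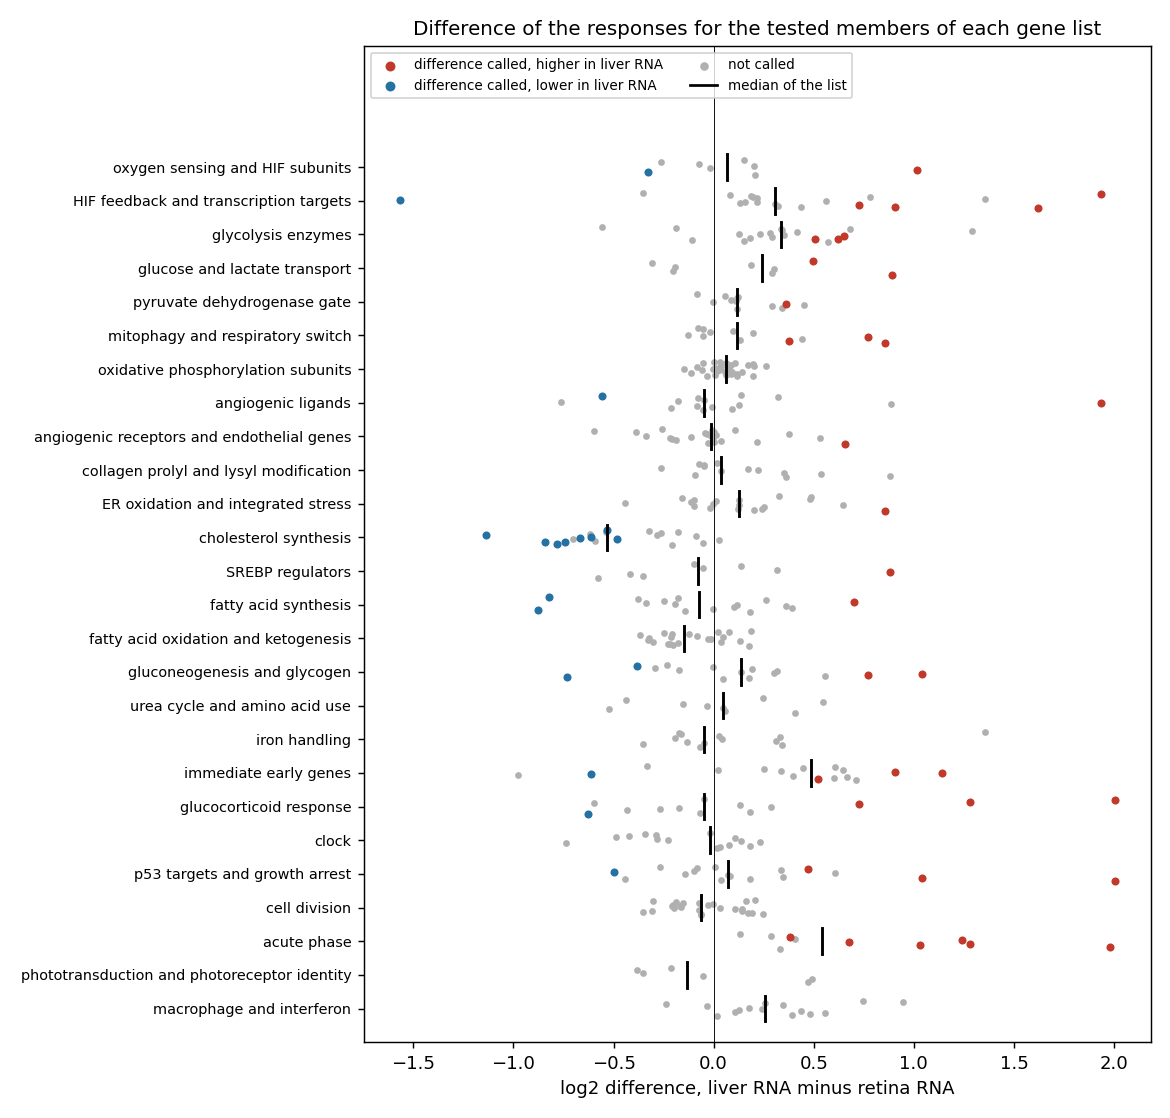
Log2 difference of the roxadustat responses (liver RNA minus retina RNA) for each tested member of 26 gene lists, one list per line, with the median as a black bar. The cholesterol list lies furthest to the left, with 8 members called lower, and the acute phase list furthest to the right, with 6 of 10 called higher.

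Some of the genes best known as HIF or liver responses could not enter the difference because a tissue hardly expressed them. Epo, the hormone that drives red cell production, ran from 0.0584 to 0.486 FPKM (median 0.189) with PBS and from 2.12 to 5.65 FPKM (median 5.22) with roxadustat in liver RNA. In retina RNA it did not exceed 0.395 FPKM with PBS or 0.403 with roxadustat. Igfbp1, a liver-secreted carrier of insulin-like growth factors, ran from 237 to 619.7 FPKM (median 505) and from 1040.1 to 2346 FPKM (median 1365) in liver RNA and did not exceed 0.267 FPKM in retina RNA. The treated liver RNA libraries were separate from the PBS libraries for both genes. Pck1, the gluconeogenic carboxykinase, ran from 301 to 479.9 FPKM (median 368) and from 544 to 926 FPKM (median 742) in liver RNA, again without overlap. No test of the difference was made for these genes.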

How the data were processed

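RNA was extracted with RNeasy and sequenced as stranded total RNA after ribosomal depletion, per the labels' protocols. The submitters' processing notes name bcl2fastq 1.8.3, TopHat2, Cuffdiff 2.2.1 and the mm9 build, and how strand was used in counting is not given in the sources used here. The authors deposited FPKM values per gene, 18 libraries per table, with no counts, so depth is unknown. Libraries were assigned from titles and column names. Rows whose symbols a spreadsheet had turned into dates, and a total row, were left out.

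Values were tested as log2(FPKM + 0.5), which understates changes of low genes, with limma 3.58.1 in R 4.3.3. A fit of 4 group means over 24 libraries (20 residual degrees of freedom) used empirical Bayes with a trend, with tests that were two-sided, and p-values were adjusted by Benjamini and Hochberg's method across 11101 genes and called at 0.05. Genes needed a mean of 0.5 FPKM over the 18 libraries of each table. The test was checked on simulated data.

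Named genes were the 12 highest and 12 lowest called differences with at least 1 FPKM in a group (passing over small RNAs and names beginning Gm or ending Rik), the 4 members of each list with the smallest adjusted p, fixed HIF and lipid genes, genes called in opposite directions, and the 8 shared genes with the narrowest intervals. A few genes that meet these rules or belong to the lists are not reported here and are left out of the list counts, while the test and the counts over all genes include every gene. The members and lists were chosen with earlier results of these data known. Replicate numbers did not pair libraries: deviations of libraries sharing a number correlated above 0.1 in 3 of 12 pairs between tissues and 3 of 12 between treatments. Alternatives covered the pseudocount, filter, scaling, variance model, sex signal, lens signal, depth, replicate block, DMOG libraries and leaving out each library. Promoters were RefSeq sequences of GRCm38.p6, matched by symbol, and are not coordinates of the files' build.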

Additional observations from a re-analysis of the deposited data

Results flagged for a closer look

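In 25 of 316 groups of 6 libraries tested, 1 library lay farther from the rest than Dixon's limit for 6 values allows, and chance alone gives about 1 in 20 such groups. The values below are FPKM, each followed by the range of the other 5 libraries of its group. In PBS replicate 1 of the retina RNA, Arnt was 6.6 (8.56 to 9.49), Rgs4 was 105 (38.2 to 48.7), Slc1a4 was 6.64 (5.27 to 5.68), Itpka was 1.77 (0.474 to 0.914) and Thrb was 14.6 (19.5 to 21.3). In the same library, Ccdc115 was 24.3 (29.7 to 30.9), Kdm3a was 14.96 (17.4 to 18.5), Serpina3n was 1.32 (0.571 to 0.842) and Sesn1 was 30.0 (37.7 to 40.8). In roxadustat replicate 2 of the liver RNA, Ankrd37 was 9.07 (14.7 to 17.7), A2m was 61.4 (15.9 to 26.3) and Serpina3n was 1022 (529 to 700.5). In roxadustat replicate 1 of the retina RNA, Crybb3 was 2013 (43.8 to 150.3), Cryba4 was 1111 (19.3 to 69.0) and S100a4 was 17.6 (2.18 to 3.90). In PBS replicate 5 of the liver RNA, Uck1 was 13.2 (16.7 to 18.8) and Gadd45b was 3.20 (2.37 to 2.62). In PBS replicate 3 of the liver RNA, Bex2 was 26.5 (9.65 to 15.7) and Ero1l was 11.1 (13.5 to 14.6). In roxadustat replicate 4 of the retina RNA, Cited2 was 64.6 (57.7 to 60.3) and Gys1 was 5.57 (4.21 to 4.69). In PBS replicate 4 of the retina RNA, Fasn was 22.2 (15.8 to 17.0). In roxadustat replicate 3 of the liver RNA, Ankzf1 was 4.09 (5.18 to 5.65). In PBS replicate 1 of the liver RNA, Pfkl was 25.6 (18.99 to 21.2). In roxadustat replicate 3 of the retina RNA, Fkbp5 was 11.9 (9.44 to 10.04).

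The log2 response to roxadustat differed between the tissues for 490 genes by the test of the difference (limma, adjusted p at most 0.05 over 11101 genes). The named genes among them are listed here with their difference, liver RNA minus retina RNA. Among the differences higher in liver RNA were Crybb3 5.74, Cryba4 3.84, S100a4 2.01, Cdkn1a 2.00, A2m 1.98, Efna1 1.93, Rgs4 1.65 and Slc1a4 1.63. Next came Ankrd37 1.62, Uck1 1.57, Lcn2 1.28, Cebpb 1.24, Ier3 1.14, Gadd45b 1.04, Gbe1 1.04 and Serpina3n 1.03. Below these were Egln3 1.01, Cited2 0.91, Dusp1 0.90, Slc2a1 0.89, Insig1 0.88, Ero1l 0.86, Bnip3 0.86, Higd1a 0.77 and Gys1 0.77. Then followed Ddit4 0.73, Me1 0.70, Socs3 0.68, Flt1 0.65, Aldoa 0.65, Gpi1 0.62, Fosl2 0.52, Pfkl 0.51 and Bsg 0.50. The smallest were Nsf 0.49, Plk2 0.47, Stat3 0.38, Bnip3l 0.37 and Pdp2 0.36. Among the differences lower in liver RNA were Grhpr -1.77, Dio3os -1.77, Ak4 -1.57, Igfbp3 -1.21, Notum -1.16, Sc4mol -1.14, Chka -1.07, Itpka -1.02 and Bex2 -1.02. These were followed by Heyl -0.98, Tnfaip8l3 -0.98, Fasn -0.88, Mid1ip1 -0.82, Thrb -0.80, Mvk -0.78 and Irs1 -0.73. The remaining lower values were Lss -0.67, Fkbp5 -0.63, Ier2 -0.61, Dll4 -0.56, Sesn1 -0.50 and Egln2 -0.33. Pdp2, Fosl2 and Lss lost the call with the lens term (limma, adjusted p = 0.20, 0.11 and 0.076). Fosl2, Lss and Cited2 lost it with the depth term (0.20, 0.17 and 0.060). Pdp2, Fosl2 and Cited2 lost it with all 36 libraries (0.090, 0.30 and 0.15).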

How the results depend on the processing

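No result reversed its direction among the calls under any of the 41 settings run. The difference was called for 490 genes as reported, for 248 when the mean had to reach 5 FPKM in both tables (fewer genes tested), for 249 with all 36 libraries setting the spread, for 207 with the lens marker term and for 171 with the relative depth term. The liver RNA response was called for 778 genes at 5 FPKM, against 1500. The retina RNA response was called for 396 genes with no filter (which tests more genes), for 50 with the lens marker term and for 68 with the relative depth term, against 193. The filter settings also changed the number of genes tested, and the cause of these changed counts was not tested. The lens and depth terms and the fit of 35 libraries were chosen after seeing the data.

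Leaving out each library in turn gave 381 to 628 differences, 1191 to 1855 liver RNA calls (lowest without PBS replicate 6 and highest without roxadustat replicate 5 of the liver RNA) and 124 to 233 retina RNA calls, lowest without roxadustat replicate 2 of the retina RNA. A replicate block by number gave 512 differences, 1540 liver RNA calls and 184 retina RNA calls, and a block within each treatment gave 452 differences, where the single responses could not be fitted. Since the numbers do not pair the libraries, these blocks carry no more weight than the unblocked fit. Among 79 named genes, 61 had a called difference, 18 of these were called in every alternative that tested them, and 17 others were called in none. Of the 61, 24 lost the call with the lens term, 28 with the depth term, 23 with all 36 libraries and 9 on leaving out at least 1 library. In the fit of 35 libraries, without DMOG replicate 5 of the liver RNA, 2 lost the call. Equal-total rescaling moved the median liver RNA response to -0.04 on the log2 scale.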

Other observations

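Lists chosen after values were seen, among them those of Notum, Lgr5, Heyl and Dll4, add 3 gene groups. The counts below include these genes. A comparison of these counts with the shares over all genes is therefore no test of a list. Over all genes tested, 2.26% of differences were lower in liver RNA and 2.15% higher. Of 10 tested Wnt feedback targets, the response was lower in liver RNA for 3: Lgr5, a receptor of Wnt-responsive cells (-0.8), Tcf7, a transcription factor of the pathway (-0.88), and Notum (-1.16). Tbx3, a liver Wnt target, was higher (0.59). The calls of Tbx3 and Notum were near the limit, with limma adjusted p = 0.0498 and 0.0488. The mean of Lgr5 in liver RNA was 2.31 ± 0.245 FPKM with PBS and 1.37 ± 0.198 with roxadustat (SD, n = 6 each), and in retina RNA it was 3.27 ± 0.425 and 3.85 ± 0.303. Of 15 tested Notch pathway genes, 3 were lower in liver RNA, Heyl (-0.98), Dll4 (-0.56) and Dtx4 (-0.57), and none was higher. Heyl and Dll4 were seen before the list was made, and Dll4 lost its call in 9 of the alternatives. Of 12 tested imprinted growth genes, Peg3 (0.89) and its antisense transcript Apeg3 (0.84), which may share reads, were higher, and Plagl1 (-0.66) and Dio3os (-1.77) were lower. Values in brackets are log2 differences, liver RNA minus retina RNA.

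Lars2, the mitochondrial leucyl-tRNA synthetase, was chosen after its values were seen, for its large fall in both tissues. The libraries were total RNA after ribosomal depletion, and whether all reads counted for Lars2 came from its mRNA was not tested. Its log2 response was -1.72 ± 0.29 (SE) in liver RNA and -1.55 ± 0.29 in retina RNA, with a 95% interval of the difference of -1.01 to 0.67. The mean in liver RNA was 1820.1 ± 258 FPKM with PBS and 555 ± 113 with roxadustat (SD, n = 6 each), and in retina RNA 3336 ± 805 and 1413 ± 1305, where the treated libraries varied widely.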
